A study of Mus musculus with 4 samples.

Results

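The Klhl, Kbtbd and Kctd genes encode adaptor proteins that carry a BTB domain, and m6A along their transcripts was examined in mouse c-Kit+ foetal liver cells. The members were all protein-coding genes of the GENCODE M21 annotation whose symbol is Klhl, Kbtbd or Kctd followed by a number. This gave 67 of 21951 protein-coding genes, of which 36 were Klhl, 9 Kbtbd and 22 Kctd genes. The rule used the symbol alone. The cells came from Ythdf2 CTL mice, the floxed control animals of the study, which carried no Cre. Their Ythdf2 allele has loxP sites around an exon and GFP placed after the start codon, so that the reader protein YTHDF2 is made as a GFP fusion. The strain background was C57BL/6, and foetal liver cells were enriched for Kit on magnetic beads (MACS), which enriches stem and progenitor cells without making the sample pure. The age of the foetuses was not given in the sources used here. The series holds 4 samples, namely meRIP-seq IP replicates 1 and 2, labelled total RNA, and input replicates 1 and 2, labelled polyA RNA. In meRIP-seq, an antibody to N6-methyladenosine (m6A) captures fragments of RNA, which are then sequenced. The data were the peak lists of IP replicates 1 and 2, and there was no second condition to compare.

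BTB proteins of these families act mainly as substrate receptors. The BTB domain binds the scaffold Cul3 of a cullin-RING ubiquitin ligase, and a second domain holds the protein to be ubiquitylated. In Klhl and most Kbtbd proteins the second domain is a propeller of kelch repeats, whereas Kctd proteins have a short BTB domain related to the tetramerisation domain of potassium channels and varied C-terminal parts. The targets include kinases, mitotic regulators, cytoskeletal proteins and G protein subunits, and several members are known mainly from muscle, neurons or testis. m6A in mRNA lies mostly in the DRACH context (D stands for any base but C, R for a purine and H for any base but G), of which GGAC is the most frequent form, and is common near stop codons and in long internal exons. Transcripts with m6A are bound by YTHDF2, which promotes their decay.

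The sequences below are GRCm38 sense-strand windows around GGAC letters that lay close to the summit, the highest point of the peak, in both replicates. They were chosen to show coding, stop codon and 3′ UTR sites across the 3 subfamilies. Capitals mark the GGAC at the centre of each window, and the windows of Kbtbd8, Kctd12, Klhl18 and Kctd2 hold a further GGAC in lower case.
Klhl6, exon 3, coding, chr16:19957136-19957196, minus strand: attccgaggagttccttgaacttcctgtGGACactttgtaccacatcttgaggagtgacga
Kbtbd8, exon 4, coding, chr6:95126645-95126705, plus strand: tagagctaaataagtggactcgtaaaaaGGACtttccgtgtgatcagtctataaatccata
Kctd12, exon 1, coding, chr14:102982187-102982247, minus strand: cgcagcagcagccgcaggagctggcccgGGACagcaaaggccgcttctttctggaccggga
Klhl22, exon 4, coding, chr16:17776797-17776825, plus strand: tagcccactgagGGACacagtggccagtg
Klhl42, exon 1, coding, chr6:147092058-147092086, plus strand: cccgcatgcgcgGGACcccggtcctggtg
Klhl18, exon 10, before the stop codon, chr9:110428696-110428724, minus strand: cgacccagagacGGACcgctggacattta
Klhl8, exon 10, after the stop codon, chr5:103863015-103863043, minus strand: atcccgtctgatGGACaggaagacagcag
Kctd7, exon 4, after the stop codon, chr5:130152709-130152737, plus strand: gctgagttgagaGGACagagcgcggaggc
Kctd2, exon 5, 3′ UTR, chr11:115431035-115431063, plus strand: agatggacatcgGGACtgagcagttgctg
Klhl5, exon 11, after the stop codon, chr5:65167158-65167186, plus strand: gcggatgcaccaGGACggatgcttctttc
Only the GGAC nearest to each summit was counted, so a further GGAC in the same window was left out. In this count, 18 sites in 16 members lay within 30 nt of the summits of both replicates. At 17 of them the letters around the A also formed DRACH. GGAC fits DRACH in all but its last base, so only that base was free to differ. The exception was the Klhl5 site, where a G follows. The summit lay 7 nt from the A of the Klhl6 site in both replicates, 6 nt from that of Kbtbd8 in both, and 9 nt from that of Klhl8 in both. A letter match is a description of the window and does not show which A was methylated.

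A GGAC lay within 50 nt of 65.6% of member summits in replicate 1 and 55.6% in replicate 2. Shared peaks of a few members had no GGAC even within 300 nt of the summit in either replicate. The exon 3 peak of Kbtbd8 had its nearest GGAC 657 nt from the summit in replicate 1 and 651 nt in replicate 2, and that of Klhl20 was 540 nt away in both. Their summit windows are given with DRACH letters in capitals.
Kbtbd8, exon 3, coding, chr6:95122346-95122406, plus strand: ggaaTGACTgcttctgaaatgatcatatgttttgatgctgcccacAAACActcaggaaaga
Klhl20, exon 3, coding, chr1:161109407-161109467, minus strand: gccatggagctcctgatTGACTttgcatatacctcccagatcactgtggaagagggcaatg
These windows held 2 DRACH matches in Kbtbd8 and 1 in Klhl20. Of the peaks in Klhl24, that at the stop codon and the shared 3′ UTR peak, 3547 nt and 3598 nt past the stop codon, also had no GGAC within 300 nt in either replicate.

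m6A summits lay in exons of 37 members in both replicates, which is 55.2% of the 67 (exact 95% interval 42.6 to 67.4, counting error only). Over all protein-coding genes the share was 30.9%. In replicate 1 alone 40 members had an exonic summit, against 34.4% of all protein-coding genes. In replicate 2 alone 39 members had one, against 33.5%. A summit in either replicate was found in 42 members, where the share of all genes was 37.1%, and 25 members had none. By subfamily, summits in both replicates were found in 19 of 36 Klhl, 7 of 9 Kbtbd and 11 of 22 Kctd genes. The interval of the Kbtbd share ran from 40.0 to 97.2% and overlapped those of the other two. A peak needs an expressed transcript, and RNA levels were not analysed here, so a gene without a summit may lack m6A or lack reads, and these cannot be told apart.

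Members with summits also had longer exons. The median longest exon was 2752 nt in the 37 members with summits in both replicates and 1431 nt in the 25 without any, while over all protein-coding genes it was 1704 nt and 981 nt in the same classes. Over all 67 members the median longest exon was 1964 nt, against 1188 nt for all protein-coding genes, and the median transcript was 3193 nt against 2543 nt. The part of exon length in the share of members with summits was not tested.

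In the plot of all member peaks, 71 peaks in replicate 1 and 67 in replicate 2 are shown by gene. Of these, 60 (84.5%) and 59 (88.1%) had 1 bp or more in common with a peak of the other library, beside 85.1% and 87.3% for the exonic peaks of all protein-coding genes. Fold enrichment is the ratio of IP signal to local background at the summit, with 1 added to each. Its median was 5.32 in replicate 1 and 5.54 in replicate 2, against 4.11 and 4.29 for all protein-coding genes. The reads behind these values were fewer than over all genes. The median member peak rested on 54 IP reads in replicate 1 and 59 in replicate 2, over a background of 11 and 9 control reads. For all protein-coding genes the medians were 71 and 68 IP reads over 18 and 14 control reads, so the higher fold of the members came with a lower background. The part of the background in the higher fold was not tested.

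**Figure D1:**
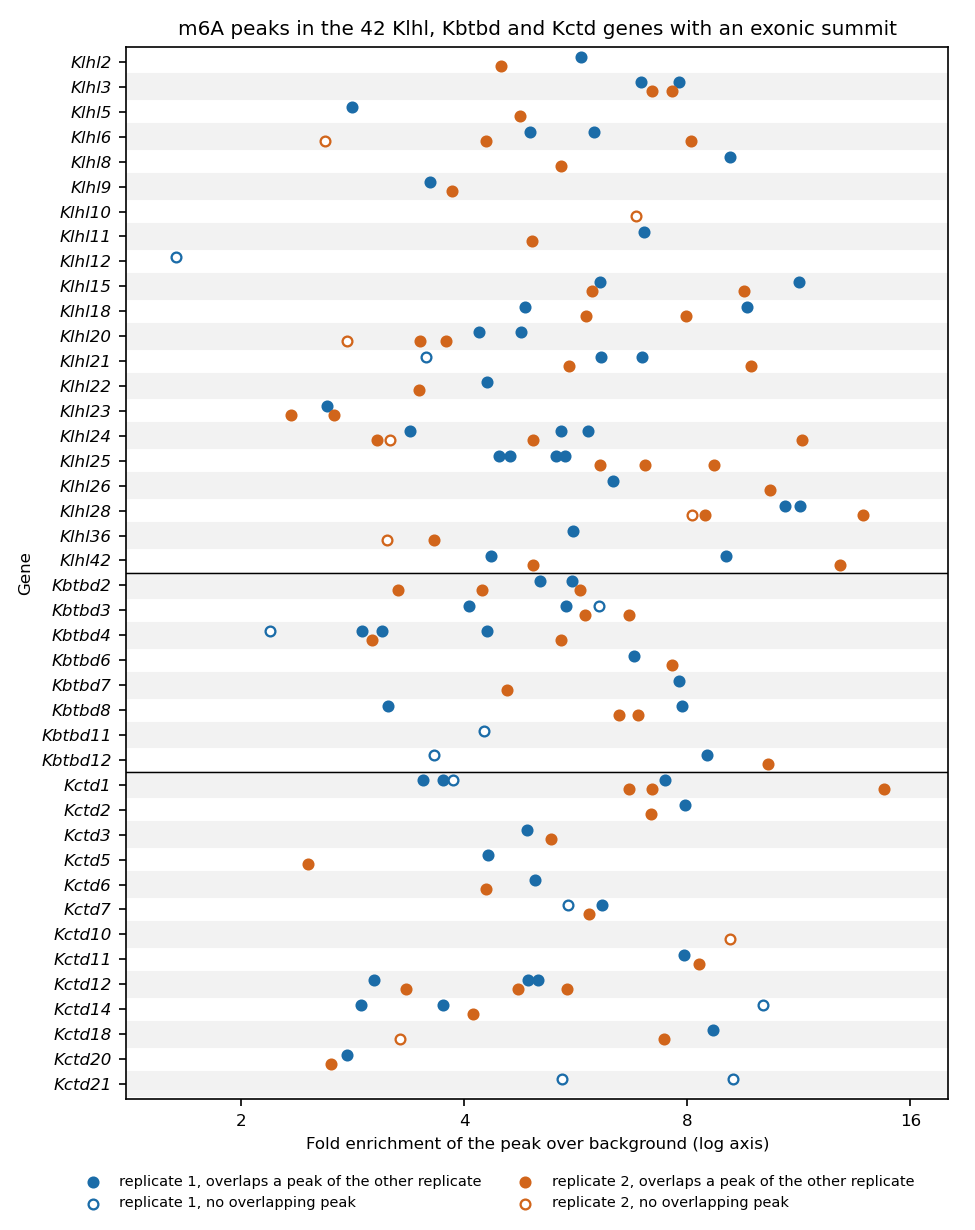
Fold enrichment (log axis) of every peak with an exonic summit in the 42 Klhl, Kbtbd and Kctd genes that had one. Blue points are replicate 1 and orange points replicate 2, filled where the peak overlapped a peak of the other replicate. Values ran from 1.63 for Klhl12 to 14.8 for Kctd1, and the members with a summit in 1 replicate only show open points alone.

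Klhl6, which is known from lymphoid cells and germinal centre B cells, had its best supported peak in exon 3, at codon 216 of 619. Fold enrichment there was 5.99 in replicate 1 (73 IP reads) and 8.09 in replicate 2 (84 IP reads), and both summits fell on the same base. A peak close to the start codon in exon 1 had 4.90-fold and 4.29-fold enrichment. A peak near the stop codon was called in replicate 2 only, at 2.59-fold with 48 IP reads. Thus the exon 1 and exon 3 peaks were seen in both libraries and the last was not.

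Several members with known roles in cell division carried m6A in coding sequence. Klhl9, an intronless gene whose product acts on Aurora B with Klhl13 and Klhl21, had 1 peak, of 3.60-fold and 3.86-fold. It rested on 163 and 161 IP reads, the deepest member peak in each replicate, over 51 and 39 control reads. Its partner Klhl13 had no summit. Klhl21 had a peak in exon 4 with 6.12-fold and 5.54-fold enrichment, and one in exon 1 with 6.95-fold and 9.76-fold on 17 and 25 IP reads. The exon 1 summits also lay in an exon of Gm9768, and since the lists carry no strand they cannot be given to either gene. A peak in exon 2 of Klhl21 was called in replicate 1 only, with 3.55-fold enrichment on 77 IP reads. Klhl22, an adaptor for the mTORC1 regulator Depdc5 and for Plk1, had 1 peak in exon 4 at codon 272 of 634, with 4.29-fold and 3.48-fold enrichment from 112 and 94 IP reads.

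Klhl18 and Klhl42, which act on Aurora A and on the microtubule-severing protein katanin respectively, each had 2 peaks in each replicate. The Klhl18 peak just before the stop codon had 9.63-fold and 7.98-fold enrichment from 81 and 66 IP reads. Further into its 3′ UTR a broad peak had 4.84-fold and 5.85-fold enrichment, with summits 1472 nt and 657 nt past the stop codon. Klhl42 had one of the strongest coding peaks, in exon 1, with 9.02-fold and 12.9-fold enrichment from 49 and 53 IP reads. Its second peak, 184 nt and 186 nt before the stop codon, had 4.35-fold and 4.95-fold enrichment but more reads (87 and 77). In both genes both peaks were called in both libraries.

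Klhl2 and Klhl3, adaptors for WNK kinases in the control of salt transport, had all their summits in the 3′ UTR. Klhl2 had 1 peak, 2028 nt and 2092 nt past the stop codon, with 5.75-fold and 4.49-fold enrichment from 70 and 65 IP reads. Klhl3 had 2 peaks in each replicate. The one nearer the stop codon had 7.80-fold and 7.64-fold enrichment, and the one far into the 3′ UTR, 4440 nt and 4424 nt past the stop codon, had 6.94-fold and 7.16-fold. These folds were even but rested on few reads, 10 and 15 for the first and 12 and 14 for the second. Background was 0.47 and 1.0 control reads at the first, and 1.0 in each replicate at the second. The value 0.47 recurred under peaks of Kbtbd11, Kbtbd12 and Kctd21 in replicate 1. It was thus not a count of reads at this summit. Both libraries thus had both peaks, at low depth.

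Among members that target signalling and translation proteins, Klhl15, an adaptor for a regulatory subunit of protein phosphatase 2A, had peaks in exons 3 and 4. The exon 4 peak reached 11.3-fold in replicate 1 and 9.53-fold in replicate 2 on 40 and 43 IP reads, and the exon 3 peak 6.09-fold and 5.95-fold on 53 and 49. Klhl20, an adaptor for Dapk1, Pml and Ulk1, had its best supported peak in exon 3, with 4.77-fold and 3.49-fold enrichment from 83 and 65 IP reads and identical summits. A 3′ UTR peak of Klhl20 had 4.19-fold and 3.78-fold enrichment, and a stop codon peak of 2.78-fold was called in replicate 2 only. Klhl25, an adaptor for the translation repressor Eif4ebp1, had 4 peaks in replicate 1 and 3 in replicate 2. Its peak before the stop codon had 5.32-fold and 6.09-fold enrichment from 102 and 95 IP reads. In replicate 2 this peak was broad (1523 bp) and also covered the coding peak of 4.61-fold that replicate 1 had as a separate peak. The 3′ UTR peaks of Klhl25 had 5.47-fold and 8.69-fold enrichment at the first and 4.45-fold and 7.02-fold at the second, both higher in replicate 2.

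Klhl28 had the strongest shared peak of all members by mean fold. It lay before the stop codon, 44 nt and 33 nt away, with 11.3-fold and 13.8-fold enrichment from 46 and 57 IP reads. A second peak, in the 899 nt exon 2, had 10.8-fold and 8.45-fold enrichment, with summits at codons 91 and 216. Another peak in exon 4 was called in replicate 2 only, at 8.11-fold on 16 IP reads. Klhl24, which controls keratin turnover in skin, has the longest 3′ UTR of the 67 members (6115 nt) and had 3 peaks in replicate 1 and 4 in replicate 2. Its exon 3 peak had 5.87-fold and 11.4-fold enrichment from 51 and 47 IP reads against 9 and 3 control reads. The IP reads were thus close, and the fold differed with the background. The Klhl24 peak at the stop codon had 3.39-fold and 4.96-fold enrichment. That 3547 nt and 3598 nt past the stop codon had 5.40-fold and 3.05-fold enrichment, and one at 4090 nt was called in replicate 2 only at 3.18-fold.

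The remaining Klhl members with summits in both replicates had 1 or 2 peaks. Klhl8 had a peak 50 nt past the stop codon in both replicates, with 9.12-fold and 5.40-fold enrichment from 40 and 33 IP reads. Klhl5 had one 128 nt and 123 nt past the stop codon, with 2.82-fold and 4.76-fold enrichment from 56 and 59 IP reads. Klhl11, an autoantigen in a form of encephalitis, had 6.99-fold and 4.93-fold enrichment in exon 2 on 122 and 113 IP reads. Klhl26 had 6.34-fold and 10.4-fold enrichment in exon 3 on 94 and 86 IP reads against 16 and 7 control reads, again close in IP reads and apart in background. Klhl23 had the lowest folds, with 2.61-fold in replicate 1 (111 IP reads) and 2 peaks of 2.67-fold (86 IP reads) and 2.34-fold in replicate 2, both of which overlapped the 1 broad peak of replicate 1. Klhl36 had 1 peak of 5.61-fold in replicate 1, and 2 in replicate 2, of which the better supported (3.15-fold, 32 IP reads, exon 5) was not called in replicate 1 and the other (3.65-fold, exon 3) was.

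**Figure D2:**
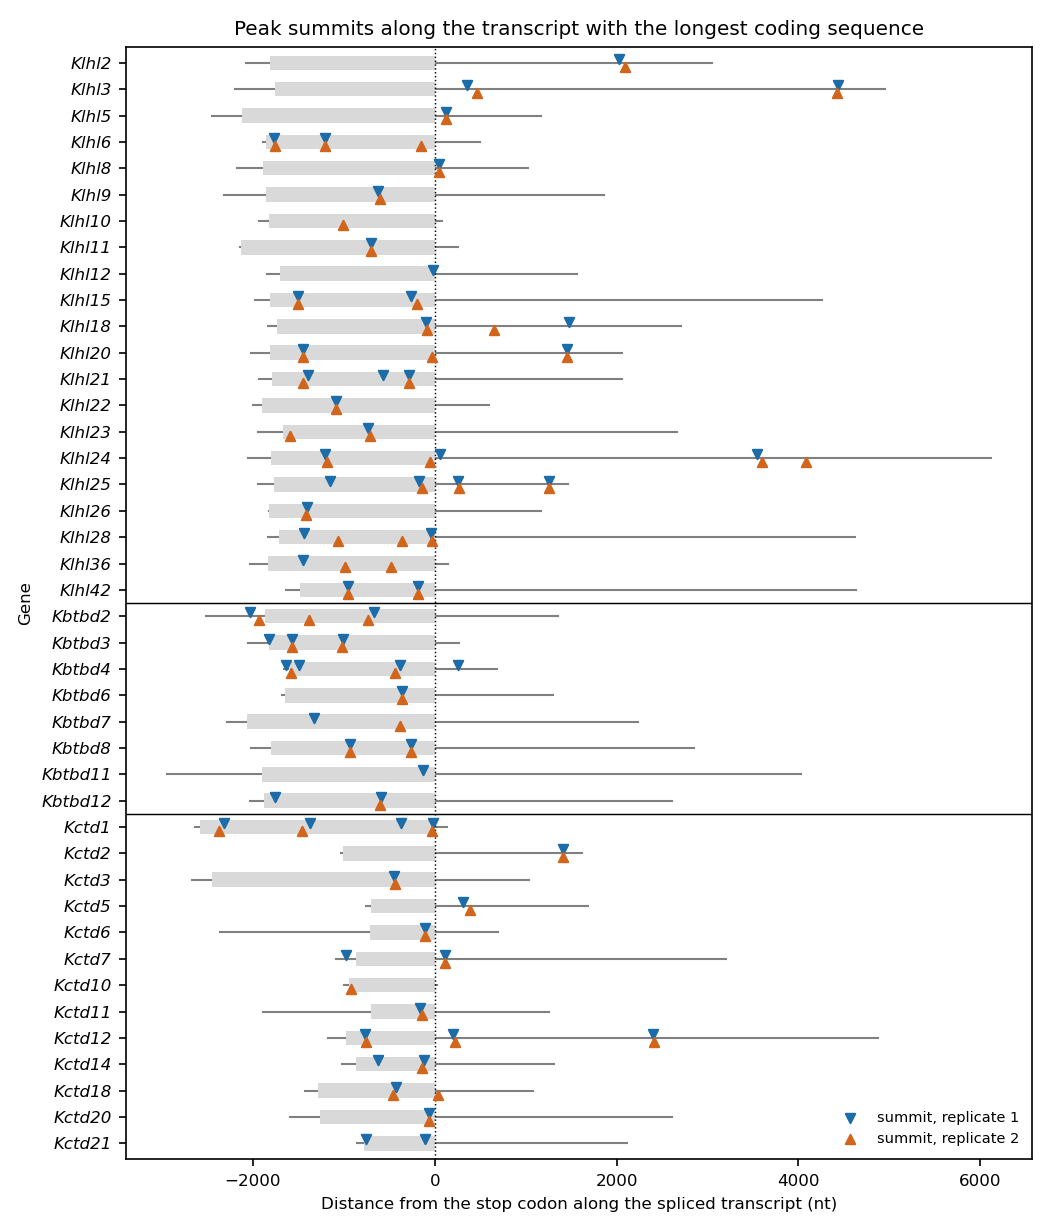
Summits of member peaks on the spliced transcript with the longest coding sequence, as distance from the stop codon in nt. Grey boxes are coding sequence, lines are UTRs, downward blue triangles are replicate 1 and upward orange triangles replicate 2. In most genes the 2 triangles lie on top of each other, and no summit lies in a 5′ UTR away from the start codon. One Kctd14 summit outside the chosen transcript is not drawn.

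All Kbtbd members but Kbtbd13 had a summit. Kbtbd6 and Kbtbd7, adaptors for the Rac activator Tiam1, are intronless neighbours on chromosome 14. Kbtbd6 had 1 peak of 6.77-fold and 7.62-fold on 59 and 55 IP reads, with summits 363 nt and 362 nt before the stop codon. Kbtbd7 had 1 broad peak of 7.79-fold and 4.57-fold on 68 and 71 IP reads. Its highest point was at codon 247 of 690 in replicate 1 and at codon 564 in replicate 2, so the peak was shared and the summit was not. The coding sequences of these genes were 90.0% identical over 1460 aligned nt. Their transcripts shared one identical stretch of 536 nt, which lies in the coding sequence of Kbtbd6 and starts in the 5′ UTR of Kbtbd7, and in which a read cannot be given to either gene. The peaks of Kbtbd6 had 0 bp in this stretch, those of Kbtbd7 had 147 bp and 167 bp, and no summit lay in it. No other pair of members shared more than 50 nt.

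Kbtbd8, an adaptor for Tcof1 and Nolc1 in neural crest specification, had 2 coding peaks in each replicate. That in exon 4 had 7.86-fold and 6.87-fold enrichment from 103 and 100 IP reads, with both summits on the same base. That in exon 3 had 3.15-fold and 6.46-fold enrichment from 60 and 75 IP reads against 21 and 10.2 control reads. Kbtbd2, an adaptor for the regulatory subunit of PI3 kinase Pik3r1, had 2 peaks in replicate 1 and 3 in replicate 2. Its main peak in exon 4 had 5.07-fold and 5.73-fold enrichment from 128 and 135 IP reads, and a start codon peak had 5.59-fold and 4.23-fold. A separate coding peak of 3.26-fold in replicate 2 lay under the broad exon 4 peak of replicate 1. Kbtbd3 had 2 shared peaks in exon 4, of 4.06-fold and 6.67-fold at the first (35 and 34 IP reads) and of 5.49-fold and 5.83-fold at the second (16 and 21 IP reads). Its peak with the highest support in replicate 1, at the start codon with 6.08-fold enrichment on 21 IP reads, was not called in replicate 2. Kbtbd12 had a peak of high fold on few reads, 8.51-fold on 11 IP reads and 10.3-fold on 14. Its background of 0.47 and 0.39 lay below 1 control read and recurred under peaks in other genes. These values were thus not counts of reads at the summit. Kbtbd12 also had a start codon peak of 3.64-fold in replicate 1 only.

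Kbtbd4, an adaptor for the CoREST corepressor, had 4 peaks in replicate 1 and 2 in replicate 2. Its neighbours Ndufs3 and Ptpmt1 have exons on the same bases as some of them. In replicate 1 the start codon peak in exon 1 (4.29-fold, 39 IP reads) lay in an exon of Ndufs3, and the exon 4 peaks of 3.10-fold (113 IP reads) and 2.19-fold (68 IP reads) lay in an exon of Ptpmt1. The exon 1 peak overlapped a replicate 2 peak of 3.38-fold on 29 IP reads, whose summit lay in no exon of Kbtbd4. The exon 2 peak of replicate 1, also in the start codon window, had 2.91-fold enrichment on 91 IP reads and lay in no other gene. In replicate 2 the overlapping exon 2 peak had 5.40-fold enrichment on 75 IP reads, and the exon 4 peak, also in Ptpmt1, had 3.0-fold on 103. Across all members 10 of 138 summits lay in an exon of another gene, and no member depended on them for summits in both replicates.

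Of the Kctd genes, Kctd1, a repressor of Tfap2 transcription factors, had the most peaks, 4 in replicate 1 and 3 in replicate 2. Its stop codon peak had 3.74-fold enrichment in replicate 1 and 14.8-fold in replicate 2, the highest of any member peak and the largest difference between replicates (3.94 times). It rested on 42 and 61 IP reads against 12 and 3 control reads. The 2 shared peaks in exon 1 had 3.52-fold and 6.67-fold enrichment at one, on 21 and 27 IP reads, and 7.47-fold and 7.16-fold at the other, on 13 and 14. A peak of 3.87-fold in exon 4 was called in replicate 1 only, on 13 IP reads.

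The Kctd members of the KCASH group, which target Hdac1 in Hedgehog signalling, differed among themselves. Kctd6 had a peak 111 nt and 109 nt before the stop codon with 4.98-fold and 4.28-fold enrichment from 91 and 80 IP reads. Kctd11, intronless, had one 160 nt and 137 nt before the stop codon with 7.93-fold and 8.30-fold enrichment from 32 and 34 IP reads. Kctd21 had 2 peaks in replicate 1, of 9.22-fold and 5.42-fold on 12 IP reads each, and none in replicate 2. The background was 0.47 at the first, the value that recurred under other peaks, and 1.60 control reads at the second. Reads behind Kctd21 were the lowest of the 3 genes.

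Among the adaptors of G proteins and receptors, Kctd5, which targets G protein beta-gamma subunits, had a 3′ UTR peak of 4.31-fold and 2.46-fold on 105 and 92 IP reads. Kctd12, an auxiliary subunit of GABA-B receptors and the only one of that group with a summit (Kctd8, Kctd12b and Kctd16 had none), had 3 peaks in each replicate. The 3′ UTR peak near the stop codon had 3.02-fold and 5.51-fold enrichment from 76 and 80 IP reads, and the distal one 4.87-fold and 3.33-fold on 49 and 55. Both lay in an exon of the long non-coding gene Gm26778 as well, and their order by fold was opposite in the replicates. The coding peak of Kctd12 lay in no other gene and had 5.04-fold and 4.73-fold enrichment from 27 and 26 IP reads.

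The other Kctd members with summits in both replicates had them mostly in the last exon. Kctd20 had the deepest of these, before the stop codon, with 162 and 149 IP reads but also 66 and 53 control reads, which gave 2.78-fold and 2.64-fold enrichment. Kctd3, a partner of a pacemaker channel, had 4.86-fold and 5.23-fold enrichment in exon 18 on 110 IP reads in each replicate. Kctd2 had a 3′ UTR peak 1416 nt past the stop codon in both replicates, with 7.94-fold and 7.14-fold enrichment from 104 and 86 IP reads. Kctd7, mutated in a progressive myoclonic epilepsy, had a peak 115 nt and 114 nt past the stop codon with 6.14-fold and 5.90-fold enrichment from 92 and 87 IP reads, and a start codon peak of 5.52-fold in replicate 1 only. Kctd14 had a peak before the stop codon with 3.74-fold and 4.11-fold enrichment from 91 and 81 IP reads. In replicate 1 Kctd14 had 2 further peaks, of 2.90-fold and 10.1-fold. Kctd18 had a coding peak in exon 7 with 8.67-fold and 7.43-fold enrichment from 41 and 38 IP reads, and a stop codon peak of 3.28-fold in replicate 2 only.

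In 5 members a summit was found in 1 replicate only, with 6 peaks in all. Apart from Kctd21, Kbtbd11 had a peak of 4.26-fold in replicate 1 on only 5 IP reads. Klhl12, an adaptor for Sec31a in the assembly of large COPII coats, had the weakest peak of any member, 1.63-fold in replicate 1, although 62 IP reads lay under it, over 43 control reads. Klhl10, an adaptor of developing sperm, had 6.83-fold enrichment in replicate 2 on 9 IP reads. Kctd10 had 9.14-fold enrichment in replicate 2 on 47 IP reads over 4 control reads, the best supported of these peaks. Klhl12 therefore had reads but little enrichment, and Kbtbd11 and Klhl10 had few reads.

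No exonic summit was found in 25 members. They were Kbtbd13, the Kctd genes Kctd4, Kctd8, Kctd9, Kctd12b, Kctd13, Kctd15, Kctd16, Kctd17 and Kctd19, and 15 Klhl genes, namely Klhl1, Klhl4, Klhl7, Klhl13, Klhl14, Klhl29, Klhl30, Klhl31, Klhl32, Klhl33, Klhl34, Klhl35, Klhl38, Klhl40 and Klhl41. Kbtbd13, Klhl40 and Klhl41 are known from skeletal muscle and nemaline myopathy, Klhl1 from neurons, and Kctd17 from cilium formation and dystonia. Several of these transcripts have long exons, such as Klhl31 with 5001 nt and Klhl32 with 4993 nt, while the longest of Kctd9 has 174 nt.

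Summits were placed by region on the transcript with the longest coding sequence, where they lay in no exon of another gene (64 in replicate 1 and 63 in replicate 2). A summit within 200 nt of the stop codon was counted there first, and then one within 200 nt of the start codon. Coding sequence outside both windows held 48.4% of member summits in replicate 1 (95% interval 35.8 to 61.3) and 47.6% in replicate 2 (34.9 to 60.6). For all protein-coding genes it held 34.0% and 33.8%. The stop codon window held 25% and 27.0% of member summits, against 30.7% and 29.8%, and the start codon window 10.9% and 7.94%, against 14.7% and 15.4%. The 3′ UTR held 15.6% and 17.5%, against 17.2% and 17.5%. No member summit lay in the 5′ UTR outside the start codon window, 0 of 64 and 0 of 63, which allows up to 5.60% and 5.69%. The share of all genes there was 3.49% and 3.51%. The share of all genes thus lay just below the interval of the members for coding sequence in both replicates, and inside it for every other region. These intervals take summits as independent, although many members had several and most peaks were shared by both replicates. The intervals are therefore likely too narrow, and the replicates do not count as separate sets of summits. The coding sequences of the members were also longer, with a median of 1794 nt against 1173 nt, and the part of this length was not tested.

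**Figure D3:**
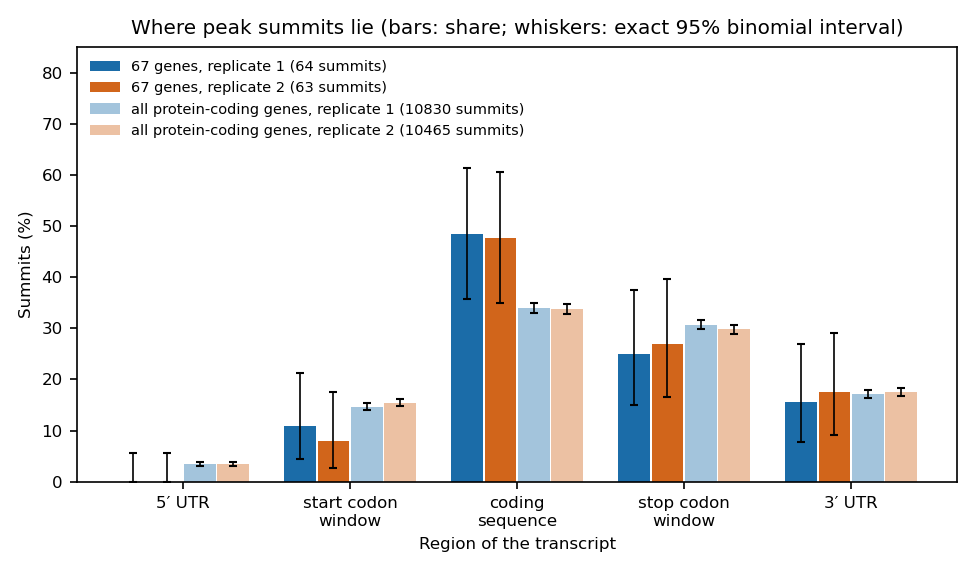
Share of summits (%) in each transcript region for the 67 genes and for all protein-coding genes, in both replicates. Bars are shares and whiskers exact 95% binomial intervals, which cover counting error only. Coding sequence is the tallest class for both sets with these windows. It holds 48.4% and 47.6% for the 67 genes, and 34.0% and 33.8% for all protein-coding genes.

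By subfamily the counts were taken over all member peaks. Of Klhl summits, 17 of 34 in replicate 1 and 17 of 38 in replicate 2 lay in coding sequence outside the codon windows, and of Kbtbd summits 9 of 16 and 10 of 12. Of Kctd summits 7 of 21 and 5 of 17 did, and 7 lay at the stop codon in each replicate. In exons of at least 400 nt lay 90.6% and 92.1% of the placed member summits, beside 86.7% and 86.8% for all protein-coding genes. A GGAC lay within 50 nt of the summit for 65.6% and 55.6% of member summits (intervals 52.7 to 77.1 and 42.5 to 68.1) and for 57.0% and 56.7% of all. A DRACH did so for 95.3% and 92.1% of member summits and for 93.7% of all in each replicate.

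The replicates were compared peak by peak. Overlap was one to one for 56 peaks in 36 members, and for 54 of them fold enrichment differed by less than 2-fold. The SD of the log2 difference was 0.55 and its mean 0.08, with 26 of 56 higher in replicate 2. The exceptions were the stop codon peak of Kctd1 and the exon 3 peak of Kbtbd8, both higher in replicate 2. The median distance between the 2 summits was 12 bp, and 36 pairs lay within 25 bp of each other, but 4 lay over 300 bp apart, among them the pair in Kbtbd7. The number of peaks was equal in both replicates for 21 of the 37 members, 8 had more in replicate 1 and 8 had more in replicate 2. Peaks found in 1 replicate had fewer reads, with a median of 19 IP reads against 56.5 for shared peaks in replicate 1, and of 32 against 65 in replicate 2.

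**Figure D4:**
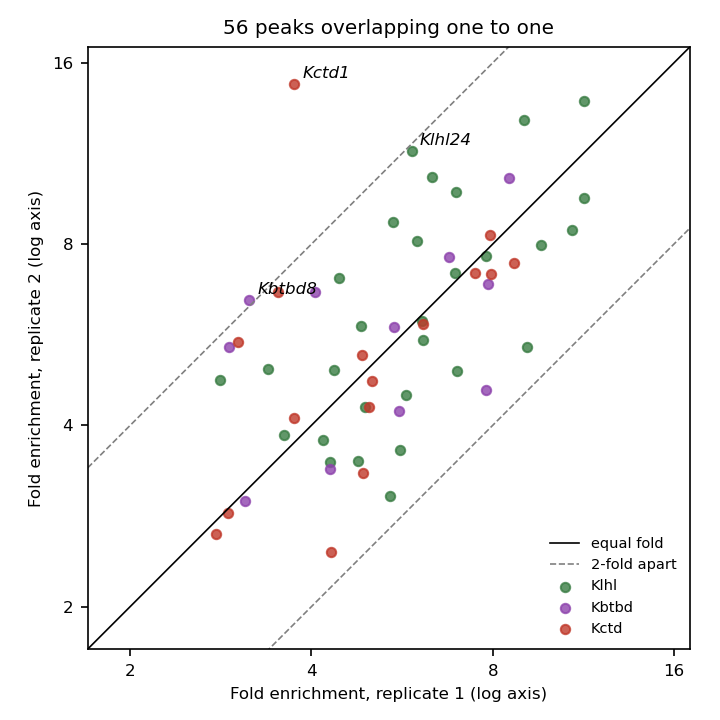
Fold enrichment in replicate 1 and replicate 2 (log axes) of the 56 member peaks that overlapped one to one. The solid line marks equal values and the dashed lines a 2-fold difference. Only Kctd1 and Kbtbd8 lie outside the dashed lines, and Kctd1 is the farthest at 3.74 and 14.8.

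Other genes of the ligase were examined as lists. Of 26 genes of the ligase core and its regulators, 15 had a summit in both replicates, 2 in 1 replicate and 9 in none. Cul3 itself, the scaffold that binds the BTB domain, had 2.37-fold and 1.85-fold enrichment from 134 and 127 IP reads, and its RING subunit Rbx1 had no summit. Cand2, an exchange factor of cullins, had the highest fold of that list, 9.56 and 14.7. Of 24 other BTB adaptors 16 had a summit in both replicates, among them Keap1, the sensor of oxidative stress, with 3.51-fold and 3.63-fold enrichment from 168 and 159 IP reads, and Spop, with 3.76-fold and 3.72-fold. Of 24 genes whose proteins are named as substrates or partners of the members, 12 had a summit in both replicates and 3 in 1 replicate. The other 9 had none, among them Hdac1, Sec31a, Wnk4 and Gnb1. Among the 12 were Tiam1 at 8.05-fold and 8.35-fold, Dapk1 at 8.38-fold and 10.6-fold, and Pik3r1 at 5.69-fold and 4.65-fold. Lower folds among them included Nolc1 at 1.99 and 1.78. The shares were 57.7%, 66.7% and 50%, against 30.9% of all protein-coding genes.

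The labelled cell type was set against marker genes, for which a summit shows that the transcript was present and the lack of one does not show that it was absent. Of 10 markers of Kit+ stem and progenitor cells 8 had a summit in both replicates, and Kit and Myb had none. Of 8 erythroid markers 4 did, including Hba-a1, with 2.11-fold and 1.91-fold enrichment on 200 IP reads in each replicate, some of which may belong to its near-identical copy. Of the other cell types, summits in both replicates were found for 1 of 5 macrophage markers (Csf1r), 1 of 5 hepatocyte markers (Apoa1) and 1 of 4 endothelial markers (Kdr). Alb, the main transcript of hepatocytes, had none. In replicate 1 only, the hepatocyte marker Afp had a peak of 5.50-fold on 7 IP reads. The macrophage marker C1qa had 2 peaks in that replicate, the better supported of 7.64-fold on 20 IP reads. No summit in either replicate was found for 3 macrophage, 3 hepatocyte and 3 endothelial markers. The part of these cells in the member peaks was not tested.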

How the data were processed

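m6A meRIP-seq was analysed as 1 peak list for each of 2 IP replicates. Per the labels and methods, the authors placed reads on mm10 (GRCm38) with HISAT2 and called peaks with MACS2 (version 2.1.1.20160309, nomodel) in each replicate. The fold enrichment in the deposited lists is the ratio of IP signal to local background at the summit, with 1 added to each. It therefore differs from the plain ratio of the reads given here, most of all where the background is low. The deposited −log10 p-value and −log10 q-value belong to the same position. Neither the calling threshold nor the control is given in the sources used here. The labels call the IP molecule total RNA and the input polyA RNA, and it is not known how this moved the background. Input libraries and library totals were not analysed here.

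Summits were set against exons of the GENCODE M21 basic annotation, and regions and motifs were read on the transcript with the longest coding sequence. Stop and start codon windows were 200 nt, and motifs were searched within 50 nt of the summit on the sense strand. IP reads and background (in control reads) at each summit were computed from the deposited fold and p-value, which both follow from them under MACS2. The scales that fitted were 0.952 for the IP of replicate 2 and 0.8735 for the control of replicate 1. Reads are given before this scaling. Whole IP reads gave the deposited −log10 p within 0.001 for 100% of peaks. The median peak had 57 IP reads in each replicate, out of 15635 peaks in replicate 1 and 14872 in replicate 2. PCR reads without molecular identifiers are not independent molecules, so the exact Clopper-Pearson intervals cover counting error only. The 2 IP samples are biological replicates per the methods.

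The members and lists were chosen with earlier results of these data known. With 1 condition no test was made, and all comparisons are descriptions. By the rule for named genes, values were given for each member with a summit in both replicates (the peak with the highest −log10 q and the number of peaks, with all peaks for members with the most peaks or the highest shared fold), for each member with a summit in 1 replicate, and by name for the rest. The alternatives were other minimums for −log10 q and fold, other overlaps, windows, transcripts and exon sets, and each replicate alone. Scripts ran in Python 3.11.15 with numpy 2.4.6 and scipy 1.17.1, and were tested on simulated data.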

Additional observations from a re-analysis of the deposited data

Results flagged for a closer look

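In addition to the exonic summits, 6 peaks inside member genes had their summit in an intron of the basic annotation and in no exon of another gene, and entered no count above. They are listed because they lie outside the exonic measurement. In replicate 1 they had 7.80-fold enrichment in Kctd1 on 10 IP reads and 3.32-fold in Klhl12 on 18. In replicate 2 they had 8.32-fold in Klhl5 on 18 IP reads, 7.64-fold in Klhl20 on 15, 3.63-fold in Klhl22 on 18 and 2.86-fold in Kctd14 on 47. The Kctd14 peak overlapped an exonic peak of replicate 1, with its summit 10 nt from an exon, and the others had no counterpart in the other replicate. The summits in Klhl5, Klhl12 and Klhl22 lay in an exon of the comprehensive transcript set.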

How the results depend on the processing

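The number of members with an exonic summit in both replicates was 37, and 34 to 37 with a minimum −log10 q of 10 or 5, with any overlap of peak and exon, with the comprehensive exons, or without summits in exons of several genes. It was 29 with a minimum fold of 4 (Kctd5, Kctd20, Klhl5, Klhl9, Klhl20, Klhl22, Klhl23 and Klhl36 were lost), and 39 or 40 in a single replicate. The number in either replicate was 42 and lay between 38 and 42. The share of all protein-coding genes was not computed with the other minimums, overlaps or exon sets. Counts at those settings therefore cannot be set against the 30.9% of the main setting. In single replicates the share of all genes was 34.4% and 33.5%. The mean share of member peaks found in the other replicate was 86.3%. It was 76.8% with a reciprocal overlap of 50%, 73.2% with summits within 100 bp and 75.6% with a minimum fold of 4. Shares by region moved with the size of the window by its construction. The stop codon share, 26.0%, was 11.8% with 100 nt and 37.8% with 400 nt, and the coding share, 48.0%, was 60.6% and 29.9%. The coding share was 46.9% on the longest transcript with a coding sequence and 49.6% with a minimum −log10 q of 5. The share with GGAC, 60.6%, was 40.9% within 25 nt and 78.0% within 100 nt. Median fold, 5.43, was 5.61 with a minimum −log10 q of 5. The cause of changes other than those of window size was not tested. In single replicates these shares ran from 25 to 27.0% (stop codon), 47.6 to 48.4% (coding) and 55.6 to 65.6% (GGAC), and median fold from 5.32 to 5.54. Peaks on few reads, such as those of Klhl3, Kbtbd12 and Kctd21, limit what the depth can show. No paired analysis was possible because the IP samples form 1 group and no test was made.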
